A study of Mus musculus with 6 samples.

Results

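The genes described here build and take apart glycogen, the branched glucose polymer that cells keep as a short-term store. They were chosen by name as 9 genes of this pathway (Gyg, Ugp2, Gys1, Gys2, Gbe1, Ppp1r3b, Ppp1r3c, Pygl and Pygb), taken by mouse gene ID from a table of 24415 gene IDs, and all 9 were found. RNA was sequenced from inguinal white adipose tissue, a fat depot under the skin of the flank, of Hsp20 KO and WT mice. All were 12 weeks old, on a C57BL/6 background and not fasted, and each group has 3 libraries. Hspb6 is the gene of Hsp20, a small heat shock protein. The sources used here give neither the make of the knockout allele, nor the time of day of collection, nor whether each library came from its own mouse, so p-values measure the spread between libraries, which may be technical. The genes were put together with the difference between Hsp20 KO and WT libraries already known, so their values in that contrast are given as a description, with no test, and support nothing by themselves.

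Glycogen grows on glycogenin, the protein made from Gyg, which adds the first glucose residues to itself. UDP-glucose pyrophosphorylase (Ugp2) makes the activated sugar, glycogen synthase (Gys1, the form of muscle and most tissues, and Gys2, known as the liver form) lengthens the chains, and the branching enzyme (Gbe1) adds the branch points. Glycogen phosphorylase (Pygl, named for liver, Pygb, named for brain, and Pygm, named for muscle) releases glucose 1-phosphate again. Ppp1r3b and Ppp1r3c are targeting subunits that bring protein phosphatase 1 (PP1) to glycogen, where it activates the synthase and inactivates the phosphorylase. Fat tissue holds little glycogen beside liver and muscle.

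Promoter windows from RefSeq on GRCm38.p6, from 250 bases before to 50 bases after a transcription start, were listed for 7 of the 9 genes, all but Gys2 and Ppp1r3b (8 windows, since Ugp2 has 2 starts). They are shown for the members with an E-box and for Pygl and Gbe1, which had the largest log2 changes among the members with a window. The E-box CACGTG is its own reverse complement and is the sequence bound by the basic helix-loop-helix factors of the circadian clock, among others. It was found once each in the windows of Ppp1r3c, starting at base -104 from the start, and of Gyg, starting at base +9, and in none of the other 5 genes with a window. Over all 27025 genes with a window, 8.09% had one. The core of the cAMP response element, TGACGT, searched on both strands, was in 0 of the 7 genes and in 8.37% of all genes. Capitals mark the E-box.
Ppp1r3c, chr19:36736555-36736854, minus strand: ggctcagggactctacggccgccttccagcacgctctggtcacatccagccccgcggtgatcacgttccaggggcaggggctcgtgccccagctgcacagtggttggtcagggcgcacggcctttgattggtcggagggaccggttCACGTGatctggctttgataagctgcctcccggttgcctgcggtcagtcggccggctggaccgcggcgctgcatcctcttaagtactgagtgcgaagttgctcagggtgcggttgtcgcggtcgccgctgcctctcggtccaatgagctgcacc
Gyg, chr3:20155067-20155366, minus strand: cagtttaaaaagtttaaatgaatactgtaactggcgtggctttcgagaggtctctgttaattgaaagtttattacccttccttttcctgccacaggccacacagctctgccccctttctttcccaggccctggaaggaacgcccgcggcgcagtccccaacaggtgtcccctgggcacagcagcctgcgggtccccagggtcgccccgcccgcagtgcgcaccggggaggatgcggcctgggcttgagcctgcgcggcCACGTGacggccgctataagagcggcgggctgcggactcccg
Pygl, chr12:70227634-70227933, minus strand: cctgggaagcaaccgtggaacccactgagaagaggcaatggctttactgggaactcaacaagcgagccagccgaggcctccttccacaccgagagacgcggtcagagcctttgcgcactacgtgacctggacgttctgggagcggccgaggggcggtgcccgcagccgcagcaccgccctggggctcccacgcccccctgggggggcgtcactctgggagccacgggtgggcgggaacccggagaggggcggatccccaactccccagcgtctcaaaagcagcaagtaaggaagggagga
Gbe1, chr16:70313699-70313998, plus strand: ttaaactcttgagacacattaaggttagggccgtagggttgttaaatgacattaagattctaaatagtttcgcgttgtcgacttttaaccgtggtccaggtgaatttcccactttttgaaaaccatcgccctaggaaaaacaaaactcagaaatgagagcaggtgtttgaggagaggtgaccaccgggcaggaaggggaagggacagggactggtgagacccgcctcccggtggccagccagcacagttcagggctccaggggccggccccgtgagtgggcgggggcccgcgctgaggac
A match is a description of these letters and not of binding.

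The libraries labelled Hsp20 KO held between 14078936 and 27937060 counts and the WT libraries between 26146472 and 32648746. Hspb6, the targeted gene, stood at 8.86, 1.51 and 3.94 CPM (counts scaled to 1 common library size with the TMM method) in the libraries labelled Hsp20 KO replicates 1 to 3, against 12.6, 9.43 and 8.95 CPM in those of WT. Its log2 change was -1.08 ± 0.51 (edgeR adjusted p = 0.227), and -1.99 without the library labelled Hsp20 KO replicate 1 (edgeR adjusted p = 0.0221). With the difference between the libraries labelled Hsp20 KO replicates 2 and 3 (their mean) and the WT mean taken as the whole scale, replicate 1 of that label stood at 19.4% for Hspb6. Directions below include that library unless stated. Skeletal muscle transcripts set WT replicate 1 apart: the fast myosin Myh4 was at 0.145, 0.229 and 13.5 CPM in the libraries labelled Hsp20 KO and at 294, 4.01 and 16.6 CPM in WT. In bulk tissue, fewer cells of a type and less RNA per cell cannot be told apart. The adipocyte list had a summed level of 12322 to 17314 CPM in the libraries labelled Hsp20 KO and 11835 to 14555 CPM in WT, with no call by edgeR in 8 genes (unadjusted, 1 higher and 0 lower at 0.05; 0 by DESeq2).

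Transcripts of the liver-type phosphorylase Pygl, the PP1 subunit Ppp1r3b and the branching enzyme Gbe1 stood 2.93, 3.11 and 2.22 times as high in the libraries labelled Hsp20 KO as in WT, with no overlap between the groups. Gys1, Ugp2 and Gyg were between 1.31 and 1.32 times as high, Gys2 was 2.12 times as high with a wide spread, and Pygb and Ppp1r3c overlapped between the groups. All 9 genes passed the filter on low counts. The edgeR quasi-likelihood test over all genes, at a Benjamini-Hochberg adjusted p under 0.05, called 4 of the 9 higher (Pygl, Ppp1r3b, Gbe1 and Gys1) and 0 lower, where it called 4.23% of all 15994 genes tested higher, 3.42% lower and 7.65% in either direction. Unadjusted, 7 of the 9 were higher and 0 lower at 0.05, where 4152 of all 15994 genes had an unadjusted edgeR p under 0.05 in either direction. DESeq2 also called 7 and 0 of the members, and its larger totals over all genes are given in the closing section. The groups did not overlap for 7 of the 9 genes, each higher in the libraries labelled Hsp20 KO, where 32.5% of all genes tested did not overlap and 16.9% did not and were higher. The median log2 change was 0.40 over the 9 genes and 0.00061 over all genes tested. These counts follow from how the genes were put together, and nothing is read from them.

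**Figure D1:**
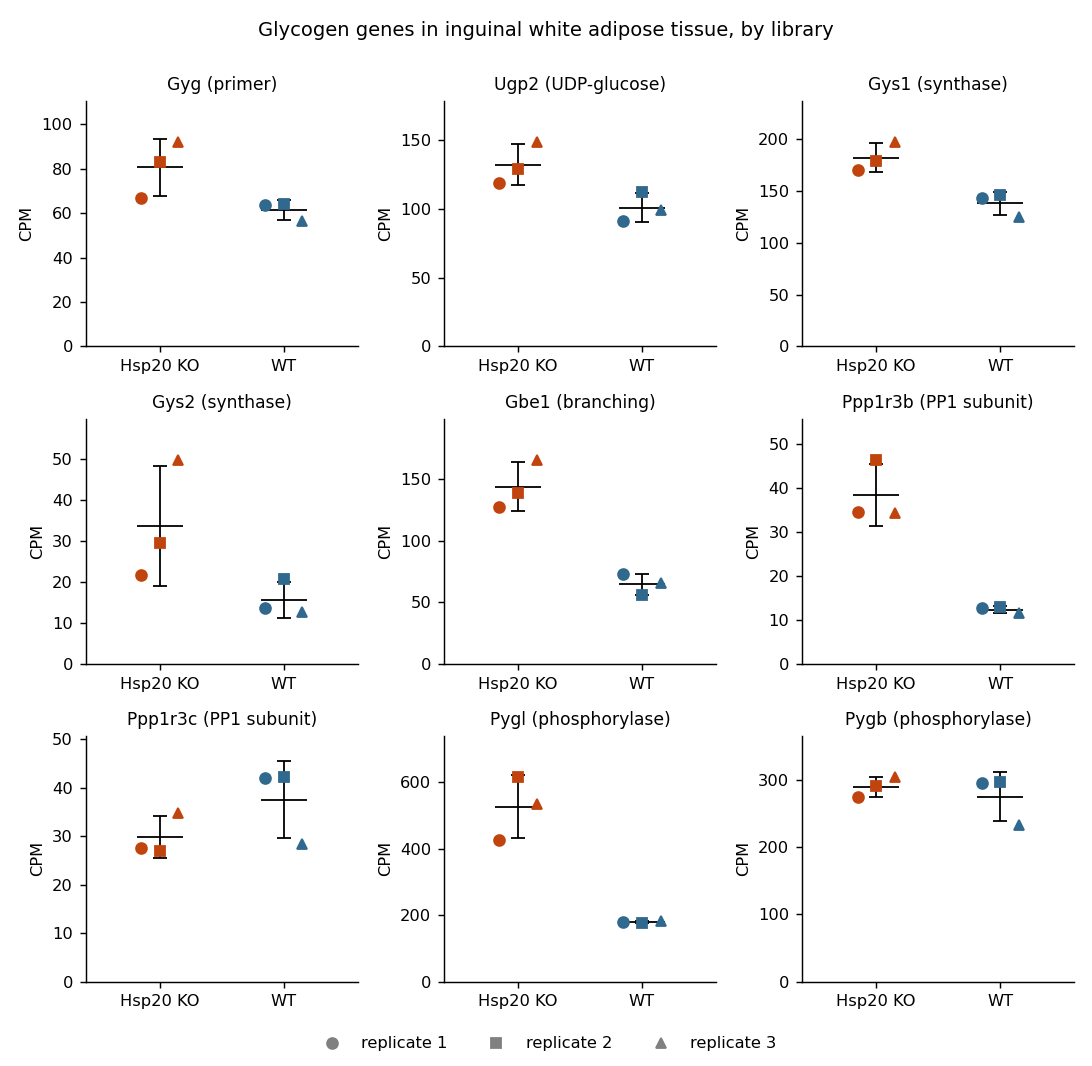
CPM (vertical axes, from 0) of each of the 9 glycogen genes in every library, Hsp20 KO at the left of each panel and WT at the right; points are libraries, their shapes the replicate numbers, and bars the mean and SD (n = 3). Pygl, Gbe1 and Ppp1r3b stand clear of WT in all 3 libraries labelled Hsp20 KO, while Pygb and Ppp1r3c overlap.

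Neither enzyme at the start of synthesis was called by edgeR, and their log2 changes were close to that of Gys1 (0.40). Gyg (glycogenin, gene ID 27357, chromosome 3, 20122083 to 20155117 on GRCm38) was at 66.9, 82.8 and 92.1 CPM in the libraries labelled Hsp20 KO replicates 1 to 3, against 63.9, 64.2 and 56.3 CPM in WT. The groups did not overlap, but the library labelled Hsp20 KO replicate 1 was only 1.04 times the highest WT library. Its log2 change was 0.39 ± 0.12 (SE), and it was not called; without that library it was 0.51 and was called. Ugp2 (gene ID 216558, chromosome 11, 21321126 to 21371267) was at 119, 129 and 149 CPM in the libraries labelled Hsp20 KO and 91.02, 112 and 99.5 CPM in WT. Its log2 change of 0.39 ± 0.11 was not called, and the lowest library labelled Hsp20 KO was 1.06 times the highest WT library. Gm12043, a gene on the opposite strand, shares 78 exon bases with Ugp2, which is 2.72% of its exon length.

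Of the synthases, Gys1 was called and Gys2 was not. Gys1 (gene ID 14936, chromosome 7, 45434839 to 45456617) was at 171, 179 and 198 CPM in the libraries labelled Hsp20 KO, against 143, 146 and 125 CPM in WT. The groups did not overlap and averaged 183 ± 13.8 CPM in the libraries labelled Hsp20 KO and 138 ± 11.1 CPM in WT (SD, n = 3 each), a log2 change of 0.40 ± 0.09. With 1 library left out, the call of Gys1 held only without the library labelled Hsp20 KO replicate 1 (log2 change 0.45). It ended without the libraries labelled Hsp20 KO replicate 2 or 3 (0.41 and 0.35), or WT replicate 1, 2 or 3 (0.42, 0.44 and 0.34). Ruvbl2, on the opposite strand, shares 310 exon bases with Gys1, which is 8.12% of the exon length of Gys1, and had a log2 change of 0.12 ± 0.08. Gys1 is the only member on the chromosome of Hspb6, 14879 kb beyond it. Of 999 tested genes on chromosome 7 more than 10 Mb from Hspb6, 9.11% were called, against 7.47% on other chromosomes, and the part of position in the value of Gys1 was not tested.

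Gys2 (gene ID 232493, chromosome 6, 142422612 to 142473130) varied most among libraries. It was at 21.6, 29.5 and 49.8 CPM in the libraries labelled Hsp20 KO replicates 1 to 3 and at 13.7, 20.7 and 12.6 CPM in WT replicates 1 to 3. The groups only just failed to overlap, since the lowest library labelled Hsp20 KO was 1.04 times the highest WT library. The coefficient of variation was 43.2% in the libraries labelled Hsp20 KO and 28.1% in WT, above that of every other member in each group. The log2 change was 1.09 ± 0.32 and was not called. Without the library labelled Hsp20 KO replicate 1 it was 1.33 and was called, and without replicate 3 of the same label it was 0.71. Of 7 hepatocyte markers, Fgb was at 0 in every library and Ttr at no more than 0.0388 CPM, and 2 passed the filter. Of these, Serpina1a was called higher and Alb was not, at 15.1 to 22.7 CPM in the libraries labelled Hsp20 KO and 21.1 to 23.1 CPM in WT. The list summed to 50.3 to 94.0 CPM in the libraries labelled Hsp20 KO and 28.4 to 32.3 CPM in WT. The higher sum was that of Serpina1a, at 34.8 to 72.8 CPM in the libraries labelled Hsp20 KO and 6.59 to 9.01 CPM in WT. The part of the list in the value of Gys2 was not tested.

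The branching enzyme Gbe1 (gene ID 74185, chromosome 16, 70313949 to 70569720) was at 128, 139 and 166 CPM in the libraries labelled Hsp20 KO, against 73.01, 55.9 and 65.5 CPM in WT. Every library labelled Hsp20 KO was at least 1.75 times the highest WT library. The means were 144 ± 19.8 CPM in the libraries labelled Hsp20 KO and 64.8 ± 8.58 CPM in WT (SD, n = 3 each), a log2 change of 1.15 ± 0.13 that was called with any single library left out (1.05 to 1.24). Gbe1 stood further from WT than Gys1, the synthase with the higher level, in each of the 3 libraries labelled Hsp20 KO: in log2 CPM they were 0.99, 1.11 and 1.37 over the mean of WT for Gbe1, and 0.31, 0.38 and 0.52 for Gys1.

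Of the PP1 targeting subunits among the members, Ppp1r3b was called higher and Ppp1r3c was not called. The other such subunits that were tested belong to the list of other glycogen genes below. With all libraries, none of them was called by edgeR, and their log2 changes ran from -0.56 to 0.47. The groups did not overlap for Ppp1r3d, Ppp1r3e or Ppp1r3f. Without the library labelled Hsp20 KO replicate 1, Ppp1r3d was called higher (log2 change 0.59, edgeR adjusted p = 0.0305). Ppp1r3e was then called lower (-0.70, edgeR adjusted p = 0.0287), and Ppp1r3f was not called. Ppp1r3b, called GL for its role in liver (gene ID 244416, chromosome 8, 35375694 to 35388139), was at 34.5, 46.6 and 34.4 CPM in the libraries labelled Hsp20 KO, against 12.7, 12.9 and 11.5 CPM in WT. Its WT libraries lay within a coefficient of variation of 6.06%, and every library labelled Hsp20 KO was at least 2.67 times the highest of them. The log2 change was 1.64 ± 0.14, the largest of the 9 genes, and it stayed called with any single library left out (1.48 to 1.72). Ppp1r3c, known as protein targeting to glycogen (gene ID 53412, chromosome 19, 36731731 to 36736604), was at 27.6, 27.0 and 34.9 CPM in the libraries labelled Hsp20 KO and at 42.1, 42.2 and 28.4 CPM in WT. The groups overlapped, with WT replicate 3 among the libraries labelled Hsp20 KO, and the log2 change was -0.34 ± 0.17. It was the only member with a negative log2 change.

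Of the phosphorylases among the members, Pygl was called higher and Pygb was not called. Pygl (gene ID 110095, chromosome 12, 70190815 to 70227683) was at 426, 615 and 536 CPM in the libraries labelled Hsp20 KO and at 179.7, 175.0 and 183 CPM in WT. WT libraries were close together, with a coefficient of variation of 2.37%, and every library labelled Hsp20 KO was at least 2.32 times the highest of them. Means were 525 ± 95.0 CPM in the libraries labelled Hsp20 KO and 179 ± 4.26 CPM in WT (SD, n = 3 each), a log2 change of 1.55 ± 0.14 that was called with any single library left out (1.42 to 1.68). Pygb (gene ID 110078, chromosome 2, 150786796 to 150831748) was at 274, 291 and 304 CPM in the libraries labelled Hsp20 KO and at 295, 297 and 233 CPM in WT. The groups overlapped, the log2 change was 0.07 ± 0.12, and without WT replicate 3 it was -0.032.

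Pygm, the muscle form, was at 6.76, 9.57 and 9.65 CPM in the libraries labelled Hsp20 KO and at 45.5, 7.83 and 8.86 CPM in WT. The high value was that of WT replicate 1, the library with the skeletal muscle transcripts, and the log2 change was -1.26 ± 0.66 (edgeR adjusted p = 0.273) with it and 0.037 without it. The 10 genes of the skeletal muscle list had a summed level of 52.2 to 90.7 CPM in the libraries labelled Hsp20 KO and 79.5 to 868 CPM in WT, and edgeR called none (unadjusted, 0 higher and 9 lower at 0.05; 0 by DESeq2). The longest identical stretch shared by transcripts of 2 phosphorylase genes was 29 bases for Pygl with either Pygb or Pygm and 62 bases for Pygb with Pygm, and it was 29 bases for Gys1 with Gys2. The sources used here give neither the read length nor the treatment of reads that map to several genes, so some reads of Pygb and Pygm may have been exchanged.

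The share of counts that each form held was compared per library for 3 steps: it was apart between the groups for Pygl and Ppp1r3b and overlapped for Gys2. Pygl held 60.3%, 67.2% and 63.1% of phosphorylase counts (Pygl, Pygb and Pygm together) in the libraries labelled Hsp20 KO replicates 1 to 3, against 34.6%, 36.4% and 43.1% in WT replicates 1 to 3. The groups were apart by more than their spread, with means of 63.5% ± 3.49 in the libraries labelled Hsp20 KO and 38.0% ± 4.50 in WT (SD, n = 3 each). The exact Clopper-Pearson 95% interval of the least deep library, labelled Hsp20 KO replicate 3, ran from 62.2% to 64.0%, and such intervals cover counting error only. Ppp1r3b held 55.6%, 63.3% and 49.6% of the counts of Ppp1r3b and Ppp1r3c in the libraries labelled Hsp20 KO and 23.2%, 23.4% and 28.9% in WT, and here too the groups did not overlap. This share covers only part of the PP1 step, since Ppp1r3d, Ppp1r3e and Ppp1r3f are left out of the total. Gys2 held 11.3%, 14.1% and 20.1% of synthase counts in the libraries labelled Hsp20 KO and 8.72%, 12.4% and 9.15% in WT. These shares of Gys2 overlapped, since WT replicate 2 lay above the library labelled Hsp20 KO replicate 1.

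**Figure D2:**
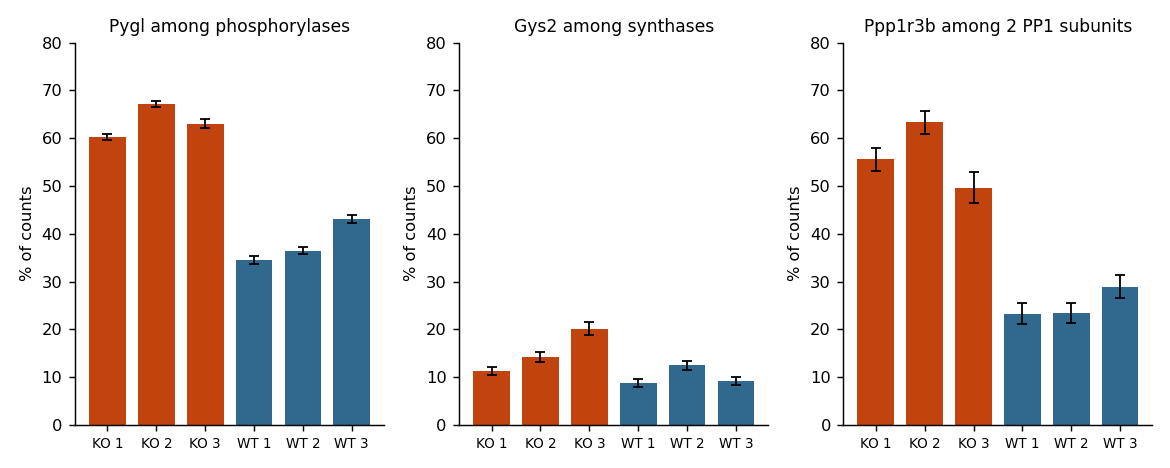
Share of counts (vertical axes, % of counts, from 0) held by Pygl among Pygl, Pygb and Pygm, by Gys2 among Gys1 and Gys2, and by Ppp1r3b among Ppp1r3b and Ppp1r3c, 1 bar per library with Hsp20 KO at the left; error bars are exact 95% binomial intervals. The bars of Pygl and Ppp1r3b do not overlap between the groups, and those of Gys2 do.

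Levels were compared between genes as CPM per kb of exon, with exon lengths from the protein-coding transcripts of GENCODE M21. In the libraries labelled Hsp20 KO the order of mean levels was Pygl (157 ± 28.4), Pygb (74.1 ± 3.86), Gys1 (47.8 ± 3.61), Ugp2 (46.1 ± 5.26), Gyg (40.8 ± 6.46), Gbe1 (33.7 ± 4.63), Gys2 (12.7 ± 5.47), Ppp1r3c (10.9 ± 1.61) and Ppp1r3b (8.47 ± 1.54 CPM per kb, SD, n = 3). Neighbours from Gys1 to Gbe1 and from Gys2 to Ppp1r3b overlapped in their libraries, and Pygl, Pygb and the rest did not. In WT the order was Pygb (70.4 ± 9.29), Pygl (53.7 ± 1.27), Gys1 (36.2 ± 2.92), Ugp2 (35.2 ± 3.71), Gyg (31.2 ± 2.26), Gbe1 (15.2 ± 2.01), Ppp1r3c (13.8 ± 2.92), Gys2 (5.90 ± 1.66) and Ppp1r3b (2.72 ± 0.165 CPM per kb). There, Gys1, Ugp2 and Gyg overlapped as neighbours, as did Gbe1 and Ppp1r3c, and the other neighbours were apart. Pygl and Pygb thus stood in opposite order in the groups, with no overlap in either. Summed per step, phosphorylases were at 234 ± 31.5 CPM per kb in the libraries labelled Hsp20 KO and 131 ± 13.7 in WT. Synthases were at 60.5 ± 9.08 CPM per kb in the libraries labelled Hsp20 KO and 42.1 ± 4.24 in WT, and neither step overlapped between the groups. The sum of Ppp1r3b and Ppp1r3c, which leaves out the other PP1 subunits tested, overlapped between the groups. It was at 19.4 ± 1.46 CPM per kb in the libraries labelled Hsp20 KO and 16.5 ± 3.09 in WT.

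The members also varied among the libraries of a group, often in the same order. The library labelled Hsp20 KO replicate 3 was the highest of its group for 7 of the 9 genes, all but Pygl and Ppp1r3b, and the one labelled Hsp20 KO replicate 1 was the lowest for 7, all but Ppp1r3b and Ppp1r3c. Among WT libraries, replicate 2 was the highest for 7 and replicate 3 the lowest for 6. The adipocyte list median was also highest in the library labelled Hsp20 KO replicate 3 and in WT replicate 2. In log2 CPM over WT it was 0.08, -0.04 and 0.32 in the libraries labelled Hsp20 KO replicates 1 to 3. In WT replicates 1 to 3 it was -0.13, 0.13 and -0.05. The part of the adipocyte genes in the order of the members was not tested. The library labelled Hsp20 KO replicate 1, in which Hspb6 was near WT, stood at 78.8% on the scale given above for Ppp1r3b, 71.6% for Gbe1, 64.3% for Gys1 and 62.2% for Pygl. It stood at 47.8% for Ugp2, 24.8% for Gys2 and 20.8% for Gyg. For Ucp1, the uncoupling protein of brown fat, the same figure was 7.37%, though its 19.1 CPM in that library was above the WT mean of 1.82 CPM. Ucp1 was the lowest on this scale among the brown adipocyte genes listed below. Fabp3, Cox8b, Cpt1b and Cox7a1 stood at 12.8% to 28.1%, Cidea at 37.5%, Elovl3 at 96.0% and Dio2 at 101%. In log2 CPM over WT, the brown adipocyte list median was 1.77, 3.49 and 3.36 in replicates 1 to 3 of that label. The same values were 1.25, 1.78 and 1.58 for Pygl, 0.50, 0.95 and 1.70 for Gys2, and 0.12, 0.43 and 0.59 for Gyg. A rise of large fold thus places the library labelled Hsp20 KO replicate 1 lower on the CPM scale than in log2 CPM. Without that library edgeR called 6 of the 9 genes higher and 0 lower (unadjusted, 7 and 0 at 0.05), Gys2 and Gyg beside the 4 named above, where 5.82% of 16167 genes were called higher and 10.3% in either direction. Without it and WT replicate 1 together, an alternative chosen after seeing the data, Pygl, Ppp1r3b, Gbe1 and Gyg were called higher and 0 lower (unadjusted, 7 and 0). Over all genes in that alternative, 4150 of 16009 had an unadjusted edgeR p under 0.05 in either direction. Without the library labelled Hsp20 KO replicate 1 alone, 4367 of 16167 genes did.

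**Figure D3:**
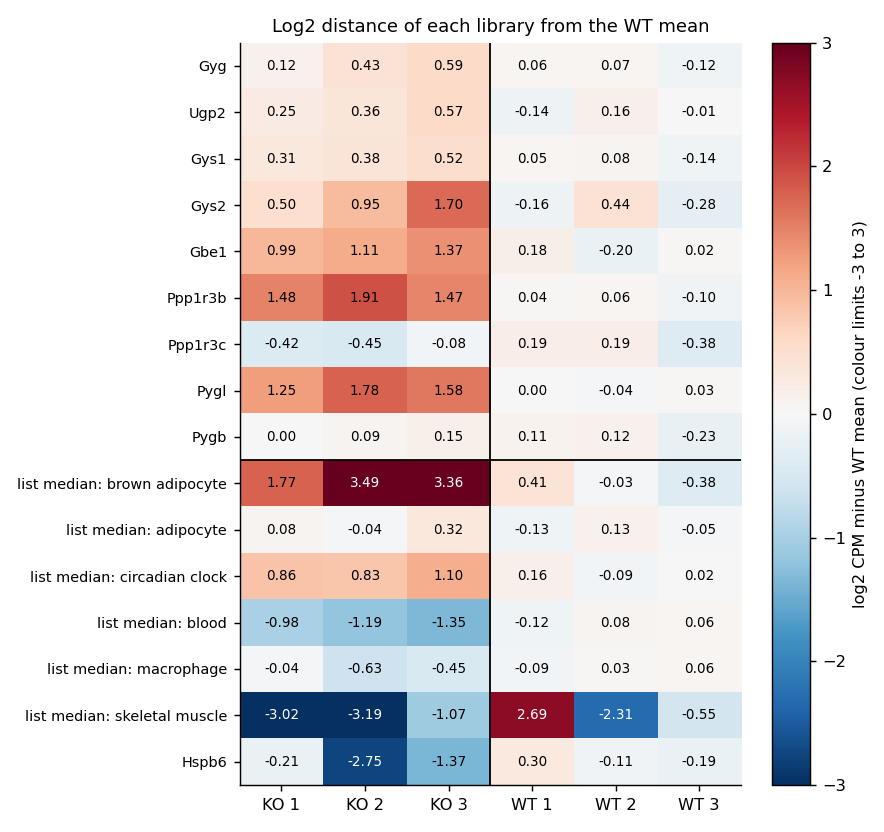
Distance of each library (columns, Hsp20 KO then WT) from the WT mean, as log2 CPM (after adding 0.01), for the 9 glycogen genes, the medians of 6 lists and Hspb6 (rows); red is above and blue below the WT mean. Ppp1r3b, Pygl and Gbe1 are 0.99 to 1.91 above it in all 3 libraries labelled Hsp20 KO, and WT replicate 1 stands out in the skeletal muscle median.

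Other genes that handle glycogen mostly did not pass the test. In a list of 26 such genes 24 were tested, and edgeR called 0 higher and 1 lower. Unadjusted, 6 were higher and 3 lower at 0.05, and DESeq2 called 1 higher and 2 lower. Their median log2 change was 0.024, and 13 of the 24 were above 0. The gene that fell was Phkg1, the catalytic subunit of phosphorylase kinase named for muscle, at 25.4, 21.1 and 22.0 CPM in the libraries labelled Hsp20 KO and 34.1, 30.7 and 36.4 CPM in WT (log2 change -0.56 ± 0.10, edgeR quasi-likelihood adjusted p = 0.0241). The groups of Phkg1 did not overlap. Its call ended without WT replicate 1, 2 or 3 (edgeR adjusted p = 0.0619, 0.0646 and 0.109) and without the library labelled Hsp20 KO replicate 2 or 3 (0.0592 and 0.0642). Phka2, a regulatory subunit of the same kinase, was within its error of 0 on the log2 scale, at 0.0035 ± 0.08 (edgeR adjusted p = 0.984). Gsk3b, a kinase that inactivates glycogen synthase, was at -0.15 ± 0.12 (edgeR adjusted p = 0.451).

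Genes of glucose entry and glucose 6-phosphate, the supply of the pathway, had 9 of 11 listed genes tested, all 9 with a log2 change above 0 and a median of 0.38, and 2 passed. None was lower by edgeR (unadjusted, 4 higher and 0 lower at 0.05) or by DESeq2, which called 4 higher. Hk2, the hexokinase of insulin-sensitive tissue, was at 190.4, 173 and 232 CPM in the libraries labelled Hsp20 KO and 145, 120 and 115 CPM in WT (log2 change 0.65 ± 0.14, edgeR adjusted p = 0.0332). Gpi1, which interconverts glucose 6-phosphate and fructose 6-phosphate, was at 329, 361 and 371 CPM in the libraries labelled Hsp20 KO and 265, 251 and 250.2 CPM in WT (0.47 ± 0.09, edgeR adjusted p = 0.0262). Neither gene overlapped between the groups. With 1 library left out, Hk2 lost its call without the library labelled Hsp20 KO replicate 3 or WT replicate 2 or 3 (edgeR adjusted p = 0.0642, 0.122 and 0.142). Gpi1 kept its call only without the library labelled Hsp20 KO replicate 1, and without another its edgeR adjusted p ran from 0.0539 to 0.134. Slc2a4, the insulin-regulated glucose carrier, was at 192, 226 and 235 CPM in the libraries labelled Hsp20 KO and 170.3, 188 and 143 CPM in WT, which did not overlap (log2 change 0.38 ± 0.12, edgeR adjusted p = 0.105).

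**Figure D4:**
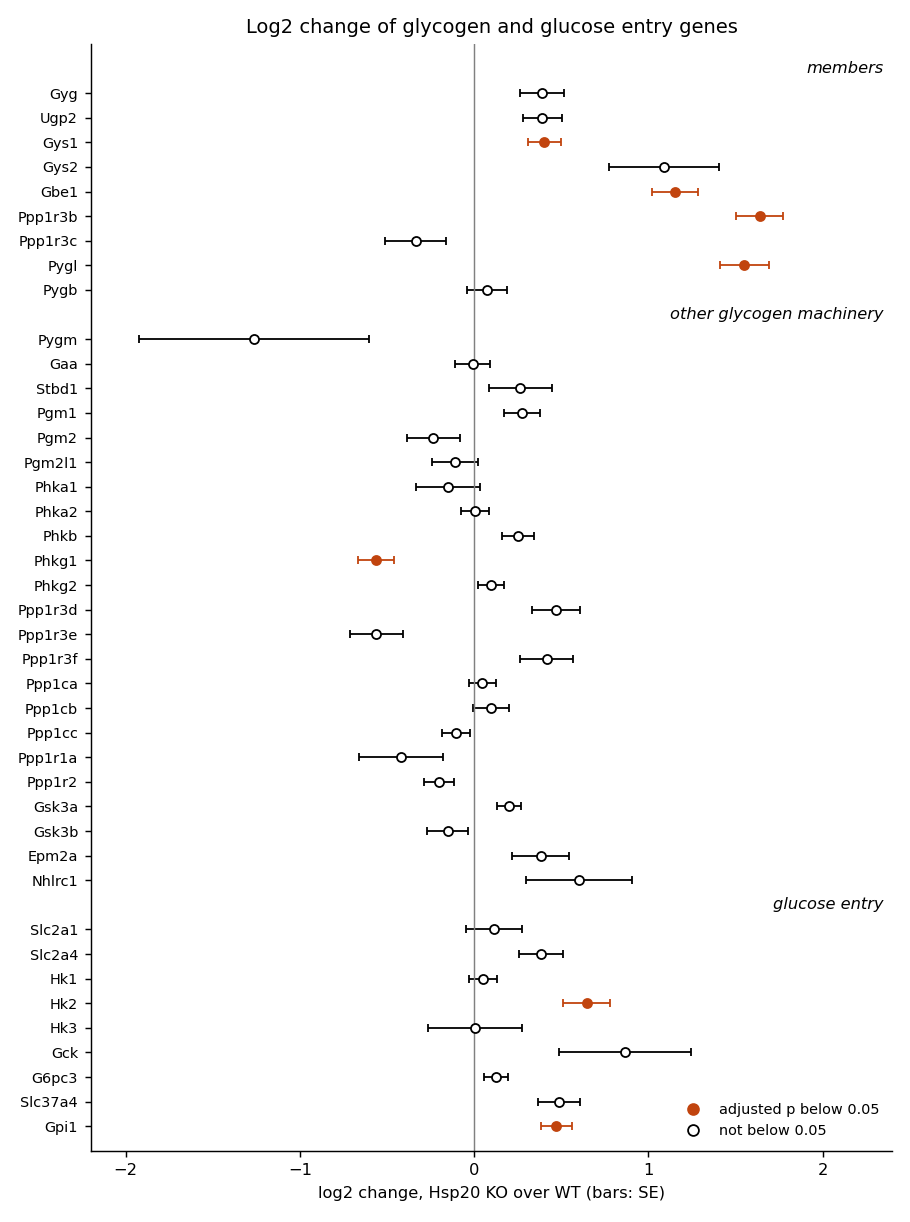
Log2 change of Hsp20 KO over WT (horizontal axis) with its SE (bars) for the 9 members in order of their step, other tested genes of glycogen handling (1 is not drawn) and 9 of glucose entry; filled points have an edgeR adjusted p below 0.05. Of the filled points, 4 are members, and Phkg1, Hk2 and Gpi1 are not.

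Several transcripts outside the pathway moved with the same grouping. All 8 genes of a brown adipocyte list were called higher, with summed levels of 229 to 799 CPM in the libraries labelled Hsp20 KO and 68.7 to 92.7 CPM in WT. That count was 5 of 8 with limma-voom, and also with the library labelled Hsp20 KO replicate 2 or 3 left out, and 2 of 8 with WT replicate 2 or 3 left out. The libraries labelled Hsp20 KO replicates 1 to 3 had list medians of 1.77, 3.49 and 3.36 over WT in log2 CPM. The clock list had 10 of 17 genes higher and 4 lower by edgeR, with medians of 0.86, 0.83 and 1.10. Dbp, a clock output factor, was at 169, 127 and 176 CPM in the libraries labelled Hsp20 KO and 30.5, 17.6 and 23.8 CPM in WT (log2 change 2.72 ± 0.21, edgeR adjusted p = 0.00212). Bhlhe41, Hlf and Ciart were also higher, 6.39-, 3.91- and 3.86-fold, and Npas2, Nfil3, Arntl and Clock were lower, with log2 changes of -2.75, -1.50, -1.32 and -0.64. Nfil3 lost its call without WT replicate 2 or 3 (edgeR adjusted p = 0.130 and 0.146), with limma-voom (0.0929), or without any 1 library labelled Hsp20 KO (0.0643 to 0.105), and Clock without WT replicate 3 (edgeR adjusted p = 0.0655). Blood genes were lower, 5 of 6 by edgeR, with summed levels of 3963 to 4835 CPM in the libraries labelled Hsp20 KO and 8987 to 10318 CPM in WT, and 3 of 6 were called without WT replicate 2 or without WT replicate 3. Neutrophil and macrophage genes, cell types that also use Pygl, had no calls by edgeR (0 of 3 and 0 of 6, with 3 lower in each list at an unadjusted p under 0.05), while DESeq2 called 3 and 2 lower. Without the library labelled Hsp20 KO replicate 1, edgeR called 3 of 6 macrophage genes lower. Neutrophil genes summed to 2.75 to 6.09 CPM in the libraries labelled Hsp20 KO and 7.41 to 14.4 CPM in WT, and macrophage genes to 1042 to 1342 CPM in the libraries labelled Hsp20 KO and 1258 to 1409 CPM in WT. The part of brown adipocyte genes, the clock, blood or these cell types in the values of the glycogen genes was not tested.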

How the data were processed

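The authors deposited raw counts of reads for each gene ID, as whole numbers with 1 column per sample. According to the submitters' processing notes, bcl2fastq, CASAVA 1.8, TopHat and DESeq were used, with the builds GRCm38 and mm10. No source used here gives the read counter, its annotation or its strand setting. Columns were matched through the sample names that the labels give. Of 24415 IDs, 24334 matched a symbol in the RefSeq table of GRCm38.p6. No 2 replicates of a group came within sampling noise of each other (chi-square divided by degrees of freedom, lowest 17.9).

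All genes were fitted with edgeR 4.0.16 in R 4.3.3. Steps were filterByExpr (counts of at least 10, totals of at least 15), TMM scaling and a quasi-likelihood test of genotype alone, with Benjamini-Hochberg adjustment over 15994 genes and a threshold of 0.05. Standard errors (SE) are those implied by F. The test was also tried on simulated counts. Alternatives were DESeq2 1.42.0, limma-voom (limma 3.58.1), other scalings, filters and thresholds, robust dispersions, a replicate block and leaving out libraries. Exon lengths came from GENCODE M21. Members and lists were chosen with earlier results of these data known. Other genes were named by rule: up to 4 calls per list and direction with at least 1 CPM, and 8 genes always; 1 of these is not reported here.

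Of the marker lists used only to check cell types, the hepatocyte list had 1 of 2 tested genes called higher by edgeR, Serpina1a, which can share reads with its copies, and 0 lower (0 unadjusted, 0 by DESeq2). EdgeR and DESeq2 each called 0 genes of B and T cells (of 6; unadjusted, 1 higher), of epithelium (of 4; unadjusted, 0) and of endothelium (of 5; unadjusted, 1 lower). Of the 6 B and T cell genes, edgeR called 3 lower without the library labelled Hsp20 KO replicate 2. Without replicate 3 of that label it called 1 higher. Smooth muscle had 1 of 5 lower, Cnn1, whose call ended with any 1 library left out (unadjusted, 0 higher and 3 lower with all libraries).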

Additional observations from a re-analysis of the deposited data

How the results depend on the processing

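The calls of Pygl, Ppp1r3b and Gbe1 held under each alternative run. Over all genes edgeR called 676 higher and 547 lower; DESeq2 called 1135 and 1024, a threshold of 0.10 gave 1250 and 1126, and leaving out 1 library gave from 75 to 941 higher and from 53 to 730 lower (fewest without WT replicate 3, most without the library labelled Hsp20 KO replicate 1). Of the 9 members, DESeq2 and the threshold of 0.10 each called 7 higher, and leaving out 1 library gave 3 to 6 higher and 0 lower. Of the other glycogen genes DESeq2 and the threshold of 0.10 each called 1 higher and 2 lower, leaving out both replicates numbered 1 gave 2 lower, and leaving out 1 library gave 0 to 1 higher and 0 to 3 lower. For glucose entry DESeq2 called 4 higher and leaving out 1 library gave 0 to 3; for the clock genes leaving out 1 library gave 2 to 4 lower. Signs turned for Pygb without WT replicate 3 (-0.032; range with 1 library left out to 0.13), for Pygm without WT replicate 1 (0.037; range from -1.65) or both replicates numbered 1 (0.19), and for Phka2 without a filter (-0.0020), without the library labelled Hsp20 KO replicate 3 (-0.00022) or without WT replicate 3 (-0.052; range to 0.053). The causes were not tested. The difference in the share of Pygl was 25.5 percentage points, and 24.5 without Pygm in the total.

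The shared replicate numbers gave no sign of pairing. Deviations from group means correlated at -0.04, 0.09 and -0.10 for numbers 1 to 3, and not every library correlated best with its own number. With 3 libraries a group, such values cannot show that the libraries were not paired. With a replicate block edgeR called 226 genes higher and 169 lower, 3 members higher (Gys1 was not called), 0 glucose entry genes (4 higher at an unadjusted p under 0.05), 3 of 8 brown adipocyte genes higher and 0 smooth muscle genes (3 lower at an unadjusted p under 0.05).

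The smallest library, with 14078936 counts, limits the precision of low genes, and 3 counts there are 0.213 CPM.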
